A study of Rattus norvegicus with 6 samples.

Results

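Potassium channel genes other than those of the ATP-sensitive channel (KATP) were compared between smooth muscle cells of arterioles (VSMCs) and pericytes of mid-capillaries (mcPCs) from the rat brain cortex. They were the rows of the deposited expression table whose gene symbol begins with Kcn, without Kcnj8 and Kcnj11, which encode the pore subunits of KATP. By this rule 51 genes were chosen of 14607 rows. Some of the 51 encode no channel pore but an auxiliary protein, and 1, Kcnrg, encodes a putative channel regulator. RefSeq lists 93 protein-coding rat symbols that meet the rule, and the 42 without a row were not analysed here.

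Messenger RNA of 6 samples had been sequenced, 3 of VSMCs and 3 of mcPCs, from male Sprague Dawley rats of 4 to 5 weeks, for which no treatment and no genetic change is given. The sample titles share letters between the cell types, which are taken as 3 isolations that each pooled several rats. VSMCs were sorted positively with a fluorescent lectin from arterioles held back on a mesh. The mcPCs were what was left of the filtrate after endothelial cells, microglia, astrocytes and oligodendrocytes had been removed with antibodies, so the sort itself did not remove cell types that no antibody bound. The table gives 1 mean per cell type and no value per sample. The authors' own test between the cell types was not used, so no SD and no test between samples is given here, and a value below is the authors' mean of the 3 samples of a cell type. Intervals below are exact binomial 95% intervals from the summed reads of the 2 cell types. They cover counting error only and leave out the spread between samples. Reads assigned to the genes of the table came on average to 62.0 M for a VSMC sample and 48.0 M for a mcPC sample.

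Potassium channels let potassium leave the cell along its gradient and so pull the membrane potential down. In arterial smooth muscle this closes voltage-gated calcium channels and lowers tone. Voltage-gated channels (Kv) open on depolarization, calcium-activated channels open with intracellular calcium, inward rectifiers (Kir) set the resting potential and respond to extracellular potassium, and tandem-pore-domain channels (K2P) carry a background leak. Auxiliary subunits bind the pores and alter their gating or their transport to the membrane. In capillary pericytes KATP is the best known potassium channel.

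VSMCs held far more potassium channel mRNA than mcPCs per unit of all mRNA. The TPM (the usual transcript level, which is corrected for gene length and scaled to the same total in every sample) of the 51 genes summed to 981 in VSMCs and to 71.3 in mcPCs. The highest gene was Kcnmb1 in VSMCs, with 42.2% of the sum, and Kcne4 in mcPCs, with 43.7%. The top 3 genes made up 70.6% of the sum in VSMCs, where they were Kcnmb1, Kcna5 and Kcne4, and 63.1% in mcPCs, where they were Kcne4, Kcnk3 and Kcnk6. In VSMCs 22 of the 51 genes reached 0.8 TPM, the minimum the study used for VSMCs, and 12 reached 10 TPM. In mcPCs 12 reached 0.8 TPM and only Kcne4 reached 10 TPM. By contrast Kcnj8, which was left out of the 51, had 345.5 TPM in mcPCs, or 4.84 times the sum of the 51 genes, against 17.2 in VSMCs.

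TPM is a share of a fixed total, and in mcPCs a large part of that total fell to erythrocyte mRNA. A set of 11 erythrocyte genes held 54.3% of the mcPC TPM and 0.716% of the VSMC TPM. The median TPM ratio of all rows, mcPC over VSMC, was -1.79 on the log2 scale. Cell types were therefore compared by the log2 ratio of the authors' mean normalized counts, mcPC over VSMC, whose median over all rows was 0.01. Negative ratios mean a higher value in VSMCs. In samples of many cells, fewer cells of a type and less RNA per cell cannot be told apart.

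**Figure D1:**
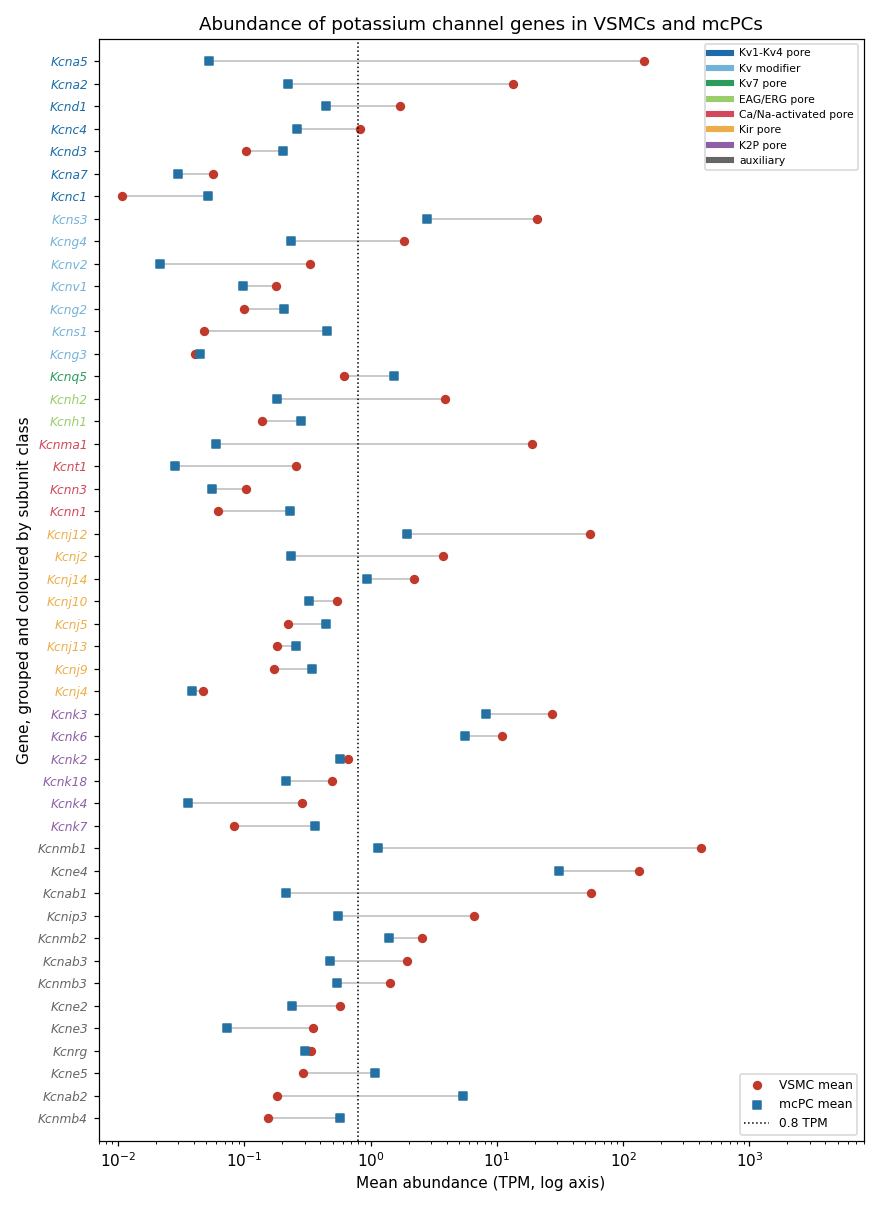
Mean abundance of 48 potassium channel genes in VSMCs (red circles) and mcPCs (blue squares), in TPM on a log axis, with genes grouped and coloured by subunit class and 0.8 TPM marked by a dotted line. Kcnmb1 is highest in VSMCs at 414 TPM and Kcne4 in mcPCs at 31.2 TPM, and most genes lie left of the dotted line in mcPCs.

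The 51 genes spread further in both directions than the table as a whole. At the 2-fold limit, 16 of them (31.4%) were higher in VSMCs, against 13.9% of all rows, and 20 (39.2%) were higher in mcPCs, against 22.0% of all rows. On TPM without centring the split was 27 (52.9%) toward VSMCs, against 74.8% of all rows, and 10 (19.6%) toward mcPCs, against 8.17%. At a 4-fold limit, 12 (23.5%) were higher in VSMCs against 5.72% of all rows, and 14 (27.5%) were higher in mcPCs against 12.4%. The other 15 lay between the 2-fold limits. The quartiles of the ratio were -1.17 and 2.52 over the 51 genes and -0.54 and 0.82 over all rows, and the medians were 0.60 and 0.01. The channel genes were also lower in level than most rows, with a median of 0.537 TPM in VSMCs against 12.7 TPM over all rows, and the part of low counts in their wider spread was not tested. Of the 51 intervals, 12 lay wholly past 2-fold toward VSMCs, 14 wholly past it toward mcPCs, and 4 included 0.

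The 2 sets differed in level on TPM without centring. Of the 16 genes higher in VSMCs, 13 reached 0.8 TPM there, and their median was 16.2 TPM in VSMCs against 0.226 in mcPCs. Of the 20 genes higher in mcPCs, 16 stayed under 0.8 TPM in both cell types, 9 had under 100 reads over the 3 mcPC samples, and their median was 0.332 TPM in mcPCs against 0.162 in VSMCs. The median log2 TPM ratio of all rows was -1.79, so 0.8 TPM is a stricter limit in mcPCs than in VSMCs. The 16 genes held 80.9% of the channel TPM of VSMCs. The 20 genes held 19.7% of that of mcPCs, where 68.0% came from the genes between the limits. When only genes with at least 0.8 TPM in VSMCs were kept, 13 of 22 channel genes (59.1%) were 2-fold higher in VSMCs, against 15.8% of such rows, and 1 (4.55%), Kcnmb2, was 2-fold higher in mcPCs, against 13.1%. A minimum in VSMCs by itself favours genes that are high in VSMCs. The paper used this minimum to filter out transcripts of contaminating cells, because endothelial transcripts stood higher in mcPCs. Of the 20 genes higher in mcPCs only Kcnmb2 passed it, so the paper's final gene set leaves out the others.

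**Figure D2:**
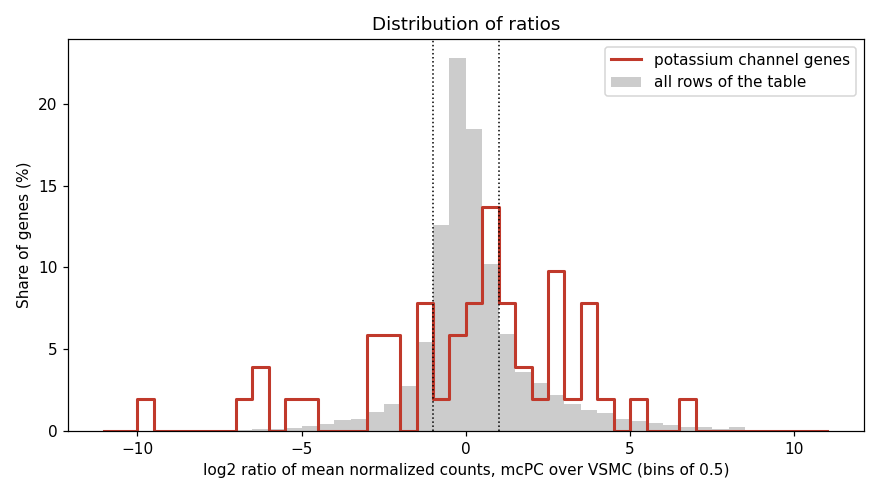
Share of genes (%) by log2 ratio of mean normalized counts, mcPC over VSMC, in bins of 0.5, for the 51 potassium channel genes (red outline) and all 14607 rows (grey), with dotted lines at 2-fold. The channel genes reach further to both sides, with 12 of them beyond 4-fold on the VSMC side and 14 on the mcPC side.

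Among the Kv1 to Kv4 pore genes, Kcna5 and Kcna2 were abundant in VSMCs and higher there. Kcna5, which encodes the Kv1.5 pore (ENSRNOG00000019719), had 146 TPM in VSMCs against 0.0527 in mcPCs, from 28488 and 20 reads. It was 883-fold higher in VSMCs (interval 572 to 1446), a log2 ratio of -9.79, and only 1 row of the table lay lower. Kcna2 (Kv1.2) had 13.3 and 0.220 TPM, a log2 ratio of -5.11 (-5.29 to -4.94). Its mean length was 16.0% greater in mcPCs, and its log2 ratio of counts without erythrocyte genes, which takes no account of length, was -4.40, and on TPM relative to the median gene at 0.8 TPM or more in VSMCs (whose TPM ratio was -1.92) it was -4.00. Within VSMCs Kcna5 was 10.96 times Kcna2 in TPM.

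Other Kv1 to Kv4 pore genes were low in both cell types. Kcnd1 (Kv4.1) had 1.70 and 0.446 TPM in VSMCs and mcPCs, a log2 ratio of -0.10 (-0.28 to 0.09), and Kcnc4 (Kv3.4) had 0.821 and 0.260 TPM, a log2 ratio of 0.20 (-0.10 to 0.49). For both genes the interval included 0. Kcnd3 (Kv4.3) was higher in mcPCs, with 0.102 TPM in VSMCs against 0.203 in mcPCs and a log2 ratio of 2.86 (2.48 to 3.25). Kcna7 and Kcnc1 stayed under 0.8 TPM in both.

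The modifier genes encode silent subunits that form no channel alone but assemble with Kv2 pores. Kcns3 (Kv9.3) was the most abundant of them in both cell types, at 20.9 TPM in VSMCs against 2.78 in mcPCs, with a log2 ratio of -1.08 (-1.172 to -0.997). That is near the 2-fold limit, and on TPM relative to the median gene it was -0.990, or -1.11 relative to the median of all rows. Kcng4 (Kv6.4) stood at 1.83 and 0.232 TPM, a log2 ratio of -1.13 (-1.36 to -0.90). Kcnv2 (Kv8.2) was scarce, at 0.328 and 0.0215 TPM, with a log2 ratio of -2.12 (-2.78 to -1.51). Kcns1 (Kv9.1) lay on the other side, at 0.0480 TPM in VSMCs against 0.452 in mcPCs, with 15 and 241 reads and a log2 ratio of 5.03 (4.28 to 5.89). Kcng2, Kcng3 and Kcnv1 were the remaining members.

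Among the Kv7 genes, Kcnq5 (Kv7.5) had 0.619 and 1.53 TPM, from 452 and 2110 reads, a log2 ratio of 3.17 (3.03 to 3.32). It was among the few pore genes above 0.8 TPM in mcPCs.

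The 2 genes of the EAG and ERG class lay on opposite sides. Kcnh2 (ERG1), known for its part in cardiac repolarization, had 3.86 TPM in VSMCs against 0.181 in mcPCs, a log2 ratio of -2.68 (-2.96 to -2.40). Kcnh1 (EAG1) had 0.139 and 0.279 TPM, a log2 ratio of 2.83 (2.45 to 3.23).

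The large-conductance calcium-activated channel (BK) had both its pore and its smooth muscle subunit on the VSMC side. Kcnma1, which encodes the BK pore (ENSRNOG00000005985), had 19.0 TPM in VSMCs against 0.0599 in mcPCs, from 8378 and 44 reads, and was 86.4-fold higher in VSMCs (64.3 to 119). Kcnmb1, whose β1 subunit raises the calcium sensitivity of BK, had the highest level of all 51 genes, 414 TPM in VSMCs against 1.14 in mcPCs, and was 106-fold higher in VSMCs (92.8 to 123). Kcnmb1 was 21.8 times Kcnma1 in TPM in VSMCs and 19.0 times in mcPCs, a similar proportion at very different levels. The mcPC proportion rests on 44 Kcnma1 and 205 Kcnmb1 reads, and the part of smooth muscle RNA in it was not tested. The mean length of Kcnmb1 was 24.4% greater in mcPCs.

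The other BK β subunit genes did not lie on the VSMC side. Kcnmb2 had 2.54 and 1.39 TPM and a log2 ratio of 1.20 (0.91 to 1.49), which turned to -0.87 on TPM without centring and was 0.92 relative to the median TPM ratio of all rows. Kcnmb3 had 1.41 and 0.537 TPM and a log2 ratio of 0.36 (0.07 to 0.64). Kcnmb4, the form best known from neurons, had 0.153 and 0.571 TPM and a log2 ratio of 3.74 (3.04 to 4.52). The other pore genes of the class, Kcnn1 and Kcnn3 of the small-conductance channels and Kcnt1 of a sodium-activated channel, stayed under 0.8 TPM in both cell types.

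**Figure D3:**
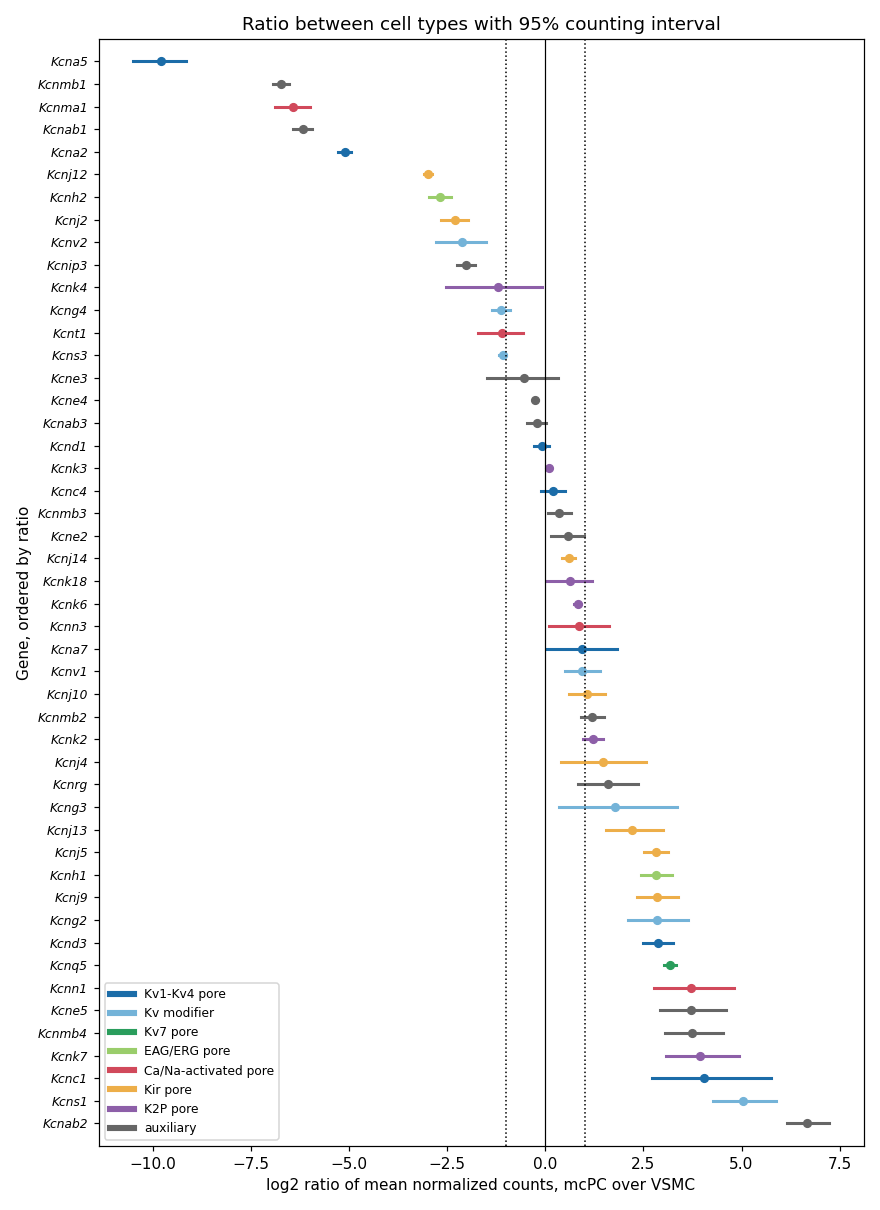
Log2 ratio of mean normalized counts, mcPC over VSMC, of 48 potassium channel genes in order of the ratio, coloured by subunit class, with 95% counting intervals as bars, a solid line at 0 and dotted lines at 2-fold. The order runs from Kcna5 at -9.79 to Kcnab2 at 6.66, and the intervals widen for genes with few reads.

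The Kir genes of VSMCs were of the strong inward rectifier group Kir2. Kcnj12 (Kir2.2) had 54.4 TPM in VSMCs against 1.93 in mcPCs and was 7.97-fold higher in VSMCs (7.42 to 8.57). Kcnj2 (Kir2.1) had 3.76 and 0.233 TPM and was 4.93-fold higher (3.91 to 6.30). In VSMCs Kcnj12 was 14.5 times Kcnj2 in TPM. Kcnj14 (Kir2.4) lay between the limits, with 2.21 and 0.929 TPM and a log2 ratio of 0.60 (0.43 to 0.77). The pair of named Kir3 genes, whose products form G protein-gated channels, lay on the mcPC side at low levels. Kcnj5 had 0.221 TPM in VSMCs against 0.440 in mcPCs, a log2 ratio of 2.82 (2.52 to 3.12), and Kcnj9 had 0.172 and 0.343 TPM, a log2 ratio of 2.84 (2.33 to 3.39). Kcnj4, Kcnj10 and Kcnj13 stayed under 0.8 TPM in both cell types.

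The leak channel genes of the K2P class made up 4.07% of the channel TPM of VSMCs and 21.0% of that of mcPCs. Kcnk3 (TASK-1), an acid-sensitive leak channel, had 27.5 TPM in VSMCs against 8.24 in mcPCs, with a log2 ratio of 0.11 (0.07 to 0.14) from 14736 and 8188 reads. Kcnk6 (TWIK-2) had 10.9 and 5.54 TPM and a log2 ratio of 0.83 (0.74 to 0.91). Both were abundant in mcPCs compared with the other channel genes, and both lay within 2-fold between the cell types. Kcnk7, whose product has formed no channel alone, had 0.0825 and 0.364 TPM and a log2 ratio of 3.95 (3.08 to 4.94). Kcnk2, Kcnk4 and Kcnk18 stayed under 0.8 TPM in both.

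Auxiliary genes held 62.9% of the channel TPM of VSMCs and 60.4% of that of mcPCs, and they included the gene at the mcPC end of the order. The Kvβ family, cytoplasmic subunits that bind Kv1 pores, was split. Kcnab1 (Kvβ1; ENSRNOG00000056697) had 56.0 TPM in VSMCs against 0.212 in mcPCs, from 22115 and 149 reads, and was 72.6-fold higher in VSMCs (61.8 to 85.9). Kcnab2 (Kvβ2; ENSRNOG00000011550) had 0.181 and 5.35 TPM, from 31 and 1626 reads, and was 101-fold higher in mcPCs (71.0 to 149). Kcnab3 (Kvβ3) had 1.92 and 0.478 TPM and a log2 ratio of -0.22 (-0.48 to 0.02), an interval that included 0. Kcnab2 was the fourth most abundant of the 51 genes in mcPCs, where the Kv1 pore genes Kcna5 and Kcna2 stood at 0.0527 and 0.220 TPM.

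The KCNE family, single-span membrane subunits of Kv channels, held the most abundant channel gene of mcPCs. Kcne4, which can bind Kv7 pores in arterial muscle, had 133 TPM in VSMCs against 31.2 in mcPCs, with 92.2% and 92.1% of all rows below it. Its log2 ratio was -0.26 (-0.32 to -0.19), within 2-fold. It stood at 3.79 times Kcnk3, the next gene, in mcPCs. Kcne5 had 0.289 and 1.08 TPM, from 15 and 91 reads, and a log2 ratio of 3.72 (2.92 to 4.61). Kcne2 and Kcne3 were under 0.8 TPM in both. Kcnip3, which encodes a calcium-binding partner of Kv4 pores that is also known as a transcriptional repressor, had 6.62 and 0.548 TPM and a log2 ratio of -2.02 (-2.25 to -1.79).

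**Figure D4:**
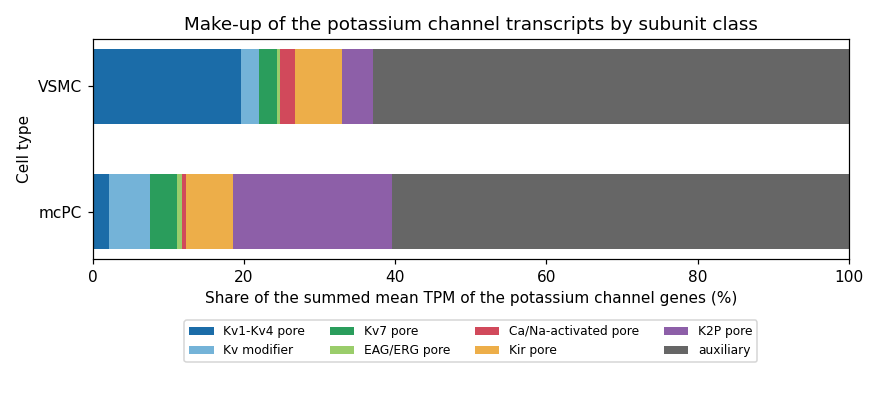
Share (%) of the summed mean TPM of the 51 potassium channel genes that fell to each subunit class in VSMCs and mcPCs. Kv1 to Kv4 pore genes took 19.6% in VSMCs and 2.15% in mcPCs, K2P genes took 4.07% and 21.0%, and auxiliary genes 62.9% and 60.4%.

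By class, 3 of 8 Kv1 to Kv4 pore genes, 3 of 7 modifiers, 1 of 2 EAG and ERG, 2 of 4 calcium- or sodium-activated, 2 of 8 Kir, 1 of 6 K2P and 3 of 13 auxiliary genes were 2-fold higher in VSMCs. The counts toward mcPCs were 2, 3, 1, 1, 5, 2 and 5 in the same order. Over all rows the shares were 13.9% toward VSMCs and 22.0% toward mcPCs. Each of these classes had members on both sides, but the classes are small and their counts were not tested against those shares. Values are given here for 31 of the 51 genes. A further 17, Kcnk4, Kcnt1, Kcne3, Kcne2, Kcnk18, Kcnn3, Kcna7, Kcnv1, Kcnj10, Kcnk2, Kcnj4, Kcnrg, Kcng3, Kcnj13, Kcng2, Kcnn1 and Kcnc1, ranged from 0.0108 to 0.665 TPM over both cell types and from -1.22 to 4.05 in log2 ratio.

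Promoters are shown for the genes at the ends of the order, because Kcna5, Kcnab1 and Kcnmb1 were among the 4 channel genes furthest toward VSMCs and Kcnab2 was the furthest toward mcPCs. The sequences are RefSeq windows on GRCr8 of 300 bases, from 250 before to 50 after the start of the transcript, written 5′ to 3′ on the gene's strand. Capitals mark matches to MCAT (CATTCC, a TEAD motif) or RBPJ (GTGGGAA, the motif of the Notch effector) on either strand.
Kcna5, chr4:161043760-161044059, minus strand: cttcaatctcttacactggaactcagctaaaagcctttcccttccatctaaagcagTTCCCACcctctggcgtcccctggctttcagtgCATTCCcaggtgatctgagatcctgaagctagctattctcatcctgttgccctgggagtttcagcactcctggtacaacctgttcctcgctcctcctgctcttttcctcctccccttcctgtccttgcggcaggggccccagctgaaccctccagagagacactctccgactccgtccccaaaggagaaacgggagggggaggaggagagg
Kcnab1, chr2:151614301-151614600, plus strand: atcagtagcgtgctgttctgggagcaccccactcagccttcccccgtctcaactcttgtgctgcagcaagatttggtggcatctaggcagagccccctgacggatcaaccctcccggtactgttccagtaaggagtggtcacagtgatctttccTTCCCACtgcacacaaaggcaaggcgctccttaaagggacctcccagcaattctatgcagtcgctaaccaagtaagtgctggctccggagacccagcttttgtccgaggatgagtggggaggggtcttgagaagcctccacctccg
Kcnmb1, chr10:19061849-19062148, plus strand: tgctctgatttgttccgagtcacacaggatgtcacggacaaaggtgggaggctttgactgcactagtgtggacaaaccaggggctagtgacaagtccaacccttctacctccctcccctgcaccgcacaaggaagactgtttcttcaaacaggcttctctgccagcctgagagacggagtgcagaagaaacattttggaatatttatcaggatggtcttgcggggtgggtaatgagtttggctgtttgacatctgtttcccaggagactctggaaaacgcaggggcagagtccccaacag
Kcnab2, chr5:168270711-168271010, minus strand: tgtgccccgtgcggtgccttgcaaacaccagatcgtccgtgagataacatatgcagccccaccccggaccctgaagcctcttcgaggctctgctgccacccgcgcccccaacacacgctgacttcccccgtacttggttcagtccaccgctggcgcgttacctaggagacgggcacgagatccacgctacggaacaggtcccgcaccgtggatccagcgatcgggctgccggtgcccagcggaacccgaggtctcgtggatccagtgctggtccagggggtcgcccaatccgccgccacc
Kcna5 held 1 match to each of the 2 motifs, Kcnab1 held 1 RBPJ match, and neither motif was found in the windows of Kcnmb1 and Kcnab2. Kcnma1 completes the 4 genes furthest toward VSMCs, and its window, which is not shown, held neither motif.

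Over all 41 windows that matched 38 of the 51 genes, an RBPJ match was found in 3 windows, those of Kcna5, Kcnab1 and Kcnj4, against 6.29% of 33469 windows. An MCAT match was found in 6 windows, against 14.2%. The RBPJ and MCAT counts lie near what these shares would give for 41 windows, and no difference was tested. The CArG box, the motif of serum response factor, was found in 0 of 41 windows, against 1.64%. Of the 14 windows of genes 2-fold higher in VSMCs, 2 held MCAT and 2 held RBPJ, and of the 19 windows of genes 2-fold higher in mcPCs, 2 held MCAT and 1 held RBPJ. A match describes letters in a window and no binding.

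Genes whose products are known to bind, anchor or turn over potassium channels lay on both sides as well. Of a list of 20 such genes, 16 had a row, in 17 rows since Cttn had 2. Of the 17 rows, 4 were 2-fold higher in VSMCs, 5 were 2-fold higher in mcPCs and 8 lay between, with a median log2 ratio of -0.65. Over all rows 13.9% were 2-fold higher in VSMCs and 22.0% in mcPCs, with a median of 0.01. The list is small, and its difference from those shares was not tested. Toward VSMCs lay Flna, the actin cross-linker filamin A, at 2204 and 50.9 TPM with a log2 ratio of -3.62 (-3.63 to -3.61). Dlg1, a scaffold that binds Kv1 and Kir2 pores, had -1.33 (-1.39 to -1.27), and Akap5, which anchors kinases at channels, had -1.48 (-1.65 to -1.31).

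Toward mcPCs lay Dpp6, a transmembrane subunit of Kv4 channels, at 0.0873 TPM in VSMCs against 0.619 in mcPCs with a log2 ratio of 4.61 (4.18 to 5.08). Nedd4l, a ubiquitin ligase that acts on Kv7 channels, had 2.20 and 6.03 TPM and a log2 ratio of 3.34 (3.22 to 3.45). Amigo1, a Kv2 partner, had 2.42 and 1.93 TPM and a log2 ratio of 1.49 (1.39 to 1.60). Lrrc55, a BK γ subunit gene, had 0.414 and 0.289 TPM, from 77 and 105 reads, and a log2 ratio of 1.29 (0.85 to 1.73). On TPM without centring the ratios of Amigo1 and Lrrc55 turned to -0.32 and -0.52, while those of Dpp6 and Nedd4l stayed positive at 2.83 and 1.46.

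Markers of other cells lay on the same side as the channel genes that were higher in mcPCs. As for the labels themselves, 8 of 8 smooth muscle markers were 2-fold higher in VSMCs, at log2 ratios from -8.35 to -2.48. Of 10 pericyte markers 8 were 2-fold higher in mcPCs. So were 7 of 7 neuronal markers with a row, whose TPM summed to 3.48 in VSMCs and 25.3 in mcPCs and were led by Tubb3 at 15.7 TPM in mcPCs. Of 4 astrocyte markers with a row 4 were higher in mcPCs (0.582 and 15.7 TPM summed), as were 9 of 11 endothelial (499 and 222 TPM, of which Esam took 487 and 184), 4 of 5 oligodendrocyte (19.7 and 17.6 TPM), 3 of 3 microglial (0.354 and 7.20 TPM) and 11 of 11 erythrocyte markers. In mcPCs Slc1a3 took 12.7 of the astrocyte TPM and Cnp 12.4 of the oligodendrocyte TPM. The endothelial and oligodendrocyte sums were higher in VSMCs on TPM without centring. Sums over several genes cannot be set directly against Kcnab2 at 5.35 TPM or the 0.332 TPM median of the 20 channel genes. The part of these other cells in the values of those channel genes was not tested. The smooth muscle markers still summed to 82.3 TPM in mcPCs, against 45203 TPM in VSMCs, and their part in the mcPC values of genes such as Kcna5 and Kcnmb1 was not tested either.

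Scales of the ratio were compared because TPM without centring lowered nearly all ratios together. On that scale 16 of the 16 genes higher in VSMCs still had a negative ratio, and of the 20 genes higher in mcPCs 15 had a positive ratio and 5 a negative ratio. Kcnk3, Kcnc4, Kcnmb3, Kcnj14 and Kcnk6, which had ratios of 0.11, 0.20, 0.36, 0.60 and 0.83 on normalized counts, had -1.74, -1.66, -1.39, -1.25 and -0.98 on TPM. Relative to the median gene they had 0.18, 0.26, 0.53, 0.67 and 0.94, and on counts without erythrocyte genes 0.07, 0.19, 0.43, 0.55 and 0.86. With counts scaled to the same total, Kcnk6 had 0.30 and the other 4 had -0.48, -0.36, -0.12 and -0.0021. The 5 genes lay within 2-fold on normalized counts.

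**Figure D5:**
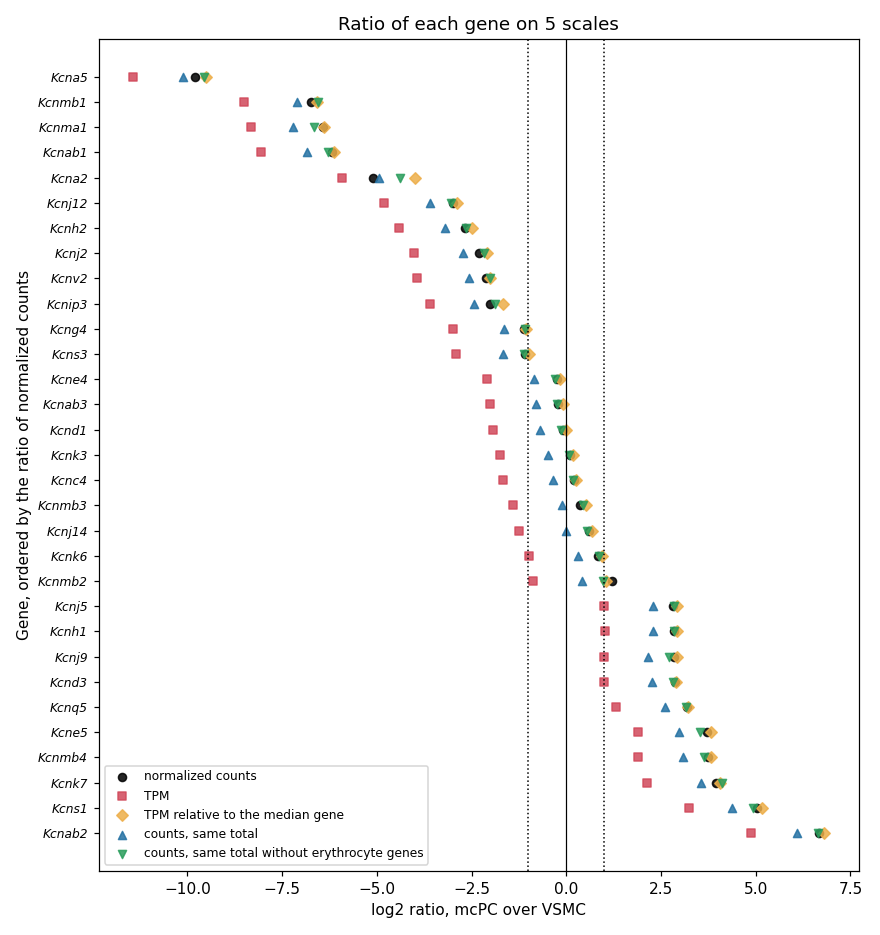
Log2 ratio, mcPC over VSMC, of the 31 potassium channel genes given with values, on 5 scales: normalized counts, TPM, TPM relative to the median gene at 0.8 TPM or more in VSMCs, counts scaled to the same total, and such counts without erythrocyte genes. TPM lies to the left of the other scales for every gene shown, and Kcnmb2 turns from 1.20 on normalized counts to -0.87 on TPM.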

How the data were processed

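Messenger RNA of 3 VSMC and 3 mcPC samples was sequenced in 4 runs per sample. The authors trimmed and filtered reads with Eoulsan, quantified them with Salmon 0.8.0 against the cDNA sequences of Ensembl for Rnor_6.0, summed transcripts per gene with tximport and normalized with DESeq2. Genes without a read in 1 or more samples were dropped by the authors. The deposited table holds, per gene, the authors' mean TPM, mean estimated counts, mean normalized counts (the deposited signal values, counts divided by normalization factors that account for length) and mean effective length of each cell type. It also holds the authors' own comparison (log2 fold change, standard error and p-values), which was not used.

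Estimated counts are means per run, so 12 times the value gives the reads over the 3 samples. 69.8% of VSMC and 71.5% of mcPC values were then whole within 0.01 read. Log2 ratios of mean normalized counts were computed without a pseudocount, with an exact binomial (Clopper-Pearson) 95% interval from the reads. A difference of 2-fold or more was counted, beside the same share of all rows. Since the table gives no value per sample, no test over samples was run. p-values, leave-one-out values and a fit by isolation are therefore absent. Values are given for genes with at least 0.8 TPM in 1 or both cell types and for genes past 4-fold with at least 100 reads where higher. Counts cover all 51 genes, of which 3 are not reported here by name, and some partner genes likewise. The members, subunit classes, marker and partner lists and motifs were chosen with earlier results of these data known. The interval step was tested on simulated counts without spread between samples or normalization factors. That test bears on counting error alone. Promoters were matched by symbol in the RefSeq table of GRCr8, and no gene coordinates of Rnor_6.0 are given. The tools were scipy 1.17.1, pandas 2.3.3, numpy 2.4.6 and matplotlib 3.10.9 under Python 3.11.15.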

Additional observations from a re-analysis of the deposited data

How the results depend on the processing

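The 16 genes 2-fold higher in VSMCs, the 20 higher in mcPCs and the median log2 ratio of 0.60 were recomputed on other scales and filters. On the ratio of mean TPM the counts were 27 and 10 and the median was -1.24, and Kcnmb2 turned to -0.87. The median of all rows was shifted to -1.79 on that scale. With counts scaled to the same total the median was -0.0021, beside -0.55 over all rows. With at least 0.8 TPM in VSMCs, 1 gene was higher in mcPCs and the median was -1.57. With at least 0.8 TPM in 1 or both cell types these were 4 and -1.08. Under the remaining settings the counts stayed within 1.5 times those given, and the median lay between 0.36 and 0.68 where it was recomputed. These were TPM relative to the median gene at 0.8 TPM or more in VSMCs (15 and 23), TPM relative to the median of all rows, chosen after seeing the data (16 and 19), counts without erythrocyte genes (16 and 18), a pseudocount of 1 (16 and 20), at least 100 reads (15 and 14), the 4-fold limit (12 and 14) and intervals wholly past 2-fold (12 and 14). No paired analysis was possible because the table gives means per cell type and no value per sample, and for the same reason leaving out each replicate was not run. Depth limits genes with few reads, since 15 of the 51 had under 100 reads in both cell types.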
